A study of Mus musculus with 6 samples.

Results

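The liver transcription factors and nuclear receptors are 38 genes, chosen by function as factors that set hepatocyte identity or as receptors and partners that tie liver transcription to lipids, hormones, foreign compounds and time of day. The platform annotation pairs 37 of them with a probe set of 1 gene symbol only, out of 18193 genes so paired. Nr1h2, which encodes LXR beta, was not analysed here. A gene with several probe sets was read from the brightest of them on average, and values are log2 expression levels. A filter on low values kept genes at 4 or above on at least 3 of the 6 arrays, which 10009 genes passed. Of the 37, 35 passed it, each of them at 4 or above on all 6 arrays, so none passed through 1 group alone. Ppard and Nr2f1 did not pass: Ppard, PPAR delta, measured 2.98 to 3.02 in KO and 2.72 to 2.98 in WT, and Nr2f1, COUP-TFI, 3.05 to 3.22 in KO and 3.05 on each WT array.

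The KO group was 3 male mice on a C57BL/6 background, 6 weeks of age, whose liver had been made deficient in p14 by a conditional knockout. The WT group was 3 control males of the same background and age, labelled wild type for p14. p14 is the product of Lamtor2, an adaptor protein that is part of the Ragulator complex on late endosomes. Not given in the sources used here are the promoter behind the recombinase and whether the controls carried a floxed allele or the recombinase. Each array held RNA from a liver sample of 1 mouse. In such bulk RNA, fewer cells of a type and less transcript per cell cannot be told apart.

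Hepatocyte identity is held by a network of factors that bind their own and each other's promoters. HNF4A, the FOXA proteins, C/EBP alpha and the ONECUT factors open and drive the genes for plasma proteins and for glucose, lipid and bile acid metabolism. Nuclear receptors are transcription factors whose activity is mostly set by small lipophilic ligands, many of them acting as a dimer with RXR: CAR and PXR sense foreign compounds, LXR sterols, the PPARs fatty acids, and the glucocorticoid receptor the adrenal hormone. For many of these proteins activity depends on ligand, localisation or phosphorylation, which transcript levels do not measure.

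The targeted gene, Lamtor2, measured 10.08, 10.19 and 10.11 on the KO arrays and 11.32, 11.29 and 11.35 on the WT arrays. It fell by 1.19, to 43.8% of the WT signal (limma, Benjamini-Hochberg adjusted p = 0.0104, and 0.0158 to 0.114 with 1 array left out). That call was lost without KO 2 (0.0691), WT 1 (0.114), WT 2 (0.114) or WT 3 (0.0505). Of 11 hepatocyte markers, 10 lay at 12.95 or above on every array, among them albumin (Alb) at 16.16 to 16.24 in KO and 16.22 to 16.28 in WT. The exception was the urea cycle gene Ass1, at 7.31 to 9.27 in KO and 6.82 to 8.21 in WT, and the bile duct keratin Krt19 lay near the lowest values, at 3.35 to 3.38 in KO and 3.35 in WT. Between 9942 and 10122 genes per array were at 4 or above. WT 2 stood apart by skeletal muscle transcripts, with a mean of 10.76 over 16 muscle markers against 2.43 to 2.56 on the other 5 arrays. Acute-phase proteins had list means of 14.23 and 14.15 on KO 1 and KO 2 and 12.93 on KO 3, against 12.87 to 13.09 on the WT arrays. Control probe sets for 18S rRNA averaged 0.80 more in KO than in WT. All 17 macrophage markers tested had differences below 0, with a median of -0.86 and list means of 8.42, 8.77 and 9.60 in KO and of at least 9.85 in WT. Of 18 endothelial markers 15 had differences below 0, with list means of 8.24 to 8.58 in KO and 8.74 to 8.83 in WT. Stellate cell and fibroblast markers had a median of -0.36, with 14 of 15 below 0. Markers of dividing cells had the lowest median of the 12 marker lists, -2.20. All 14 of them had non-overlapping groups with KO lower, 4 were called, and their list means were 4.41 to 5.45 in KO and 6.93 to 7.18 in WT. Of the called ones Aurka, Kif20a and Nuf2, like Ccna2, were at 4 or above on 3 arrays only, those of WT. They passed the filter through the group where they are high, so a lower KO was partly set by that choice. Aurkb, Plk1 and Bub1 did not pass. The part of these differences in the results below was not tested, except where values without an array are given.

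The comparison of KO with WT asked whether the transcripts of the liver's own regulators differ between livers made deficient in p14 and control livers. None of the 35 was called at an adjusted p under 0.05 in limma, where 0.170% of all 10009 genes were (17 genes, 0.150% lower and 0.0200% higher in KO). Klf10 came nearest, at 53.0% of the WT signal. At an unadjusted p under 0.05 there were 6 of the 35, or 17.1%, against 14.5% of all genes. The 6 were Foxa2, Foxa3, Onecut2, Cebpa and Klf10 on the lower side and Nr3c1 on the higher. Over all genes 10.1% were lower and 4.32% higher at that threshold, which is the background for each target list below. The KO and WT arrays did not overlap for 9 of the 35, or 25.7%, against 20.5% of all genes, and these shares are close to the background. Of the 9, 8 lay lower in KO (background 14%, 1400 of 10009 genes) and 1 higher (background 6.54%). With each array centred on its median there were also 9, but 5 lower and 4 higher, and the shares of all genes with centring are not given here. The median difference of the 35 was -0.05, beside -0.04 over all genes tested. In all, 21 of the 35 lay below 0, beside 58.4% of all genes.

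**Figure D1:**
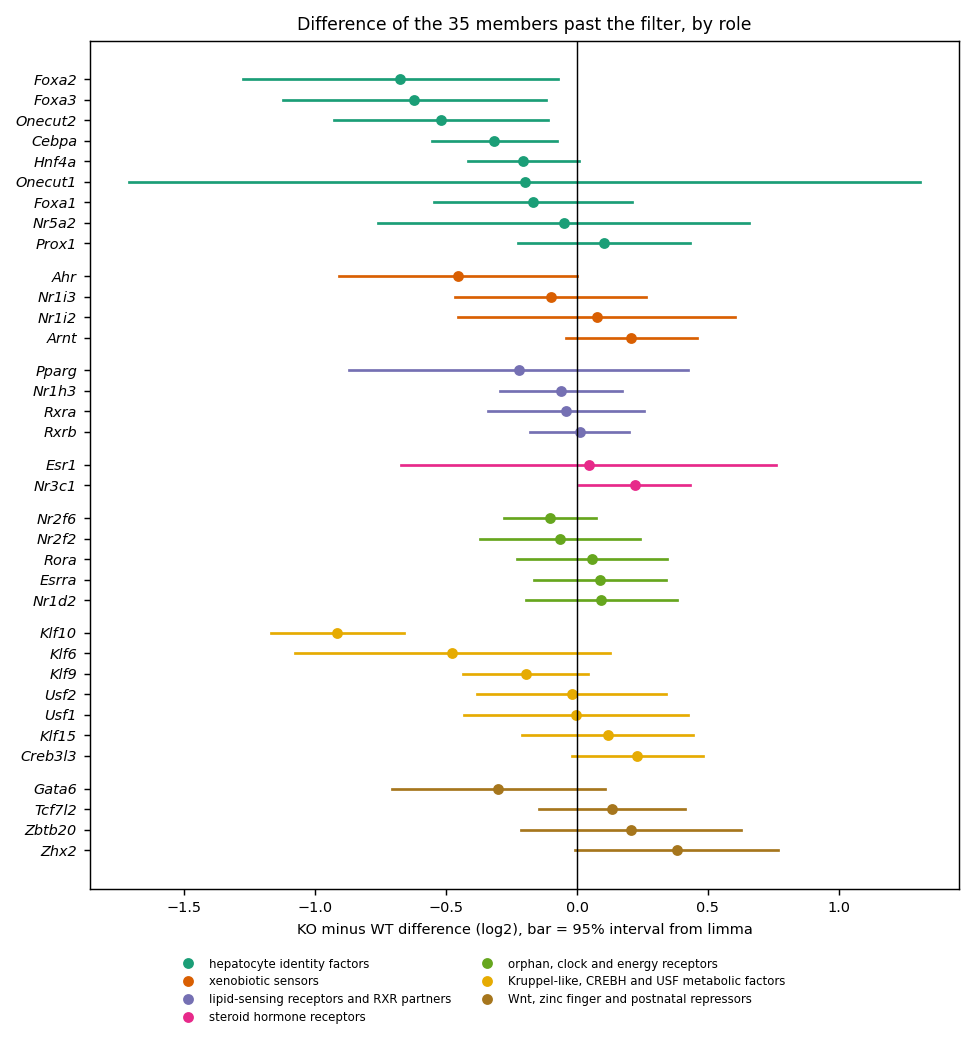
Difference of KO minus WT on the log2 scale (horizontal axis) for the 35 genes past the filter, grouped by role, with 95% intervals from limma as bars. Klf10 has the lowest difference, at -0.92 and 8 of the 9 identity factors lie below 0.

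For 19 of the 35 the 95% interval of the difference lay wholly within 0.5 on either side of 0, a fold of 1.41 at most, and for 30 within 1, a fold of 2. The remaining 5 were Foxa2, Foxa3, Onecut1, Klf6 and Klf10. Across all genes tested, 5993 of 10009 lay within 0.5 and 8905 within 1.

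Among the 9 hepatocyte identity factors, 8 had a difference below 0, and for 5 of them every KO array lay below every WT array: Hnf4a, Foxa2, Foxa3, Onecut2 and Cebpa. Over all genes tested, 58.4% had a difference below 0 and 14% had non-overlapping groups with KO lower. With arrays centred on their medians Hnf4a overlapped and the other 4 did not. None was called, and the differences of these 5 ran from -0.67 to -0.20. Foxa2, a pioneer factor that opens chromatin at liver genes, measured 9.54, 9.58 and 8.79 on the KO arrays and 9.98, 9.76 and 10.19 on the WT arrays. The KO spread came mainly from KO 3, the lowest array of all. The difference was -0.67 with a standard error of 0.24 (limma, adjusted p = 0.318), and it was -0.42 without KO 3, the only array whose removal moved it by over 1.5 times.

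Foxa3, the FOXA member most abundant in adult liver, measured 10.79, 10.61 and 10.68 on the KO arrays and 11.60, 10.86 and 11.48 on the WT arrays. The KO arrays lay close together and WT 2, the array with muscle transcripts, came nearest to them, 0.08 above the highest. The difference was -0.62 with a standard error of 0.20 (limma, adjusted p = 0.295), and -0.85 without WT 2. Foxa1, the third pioneer factor of the family, had overlapping groups, at 8.42 to 8.92 in KO and 8.74 to 9.03 in WT, with an interval of the difference from -0.55 to 0.21.

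Onecut2, a cut-homeodomain factor related to HNF6, measured 10.33, 9.94 and 10.29 on the KO arrays and 10.68, 10.47 and 10.96 on the WT arrays. All 3 of its probe sets showed non-overlapping groups in the same direction, with differences from -0.55 to -0.50. The brightest gave -0.52 with a standard error of 0.17 (limma, adjusted p = 0.29). Onecut1, HNF6 itself, varied most among the factors, at 5.62 to 6.61 in KO and 5.36 to 7.55 in WT. Its difference of -0.20 had an interval from -1.71 to 1.31, and its other probe set gave 0.48, so these arrays leave its direction unsettled.

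Cebpa, the basic leucine zipper factor of hepatocyte differentiation, measured 12.83, 12.82 and 12.83 on the KO arrays and 13.25, 12.95 and 13.22 on the WT arrays. The KO arrays were nearly alike (SD 0.0043) and all lay below WT 2, the lowest WT array. The difference was -0.32 with a standard error of 0.10 (limma, adjusted p = 0.283), which is 80.3% of the WT signal. Hnf4a, the receptor at the centre of the hepatocyte network, measured 13.21, 13.05 and 12.95 on the KO arrays and 13.30, 13.30 and 13.23 on the WT arrays. The groups were separated by 0.01 only, between KO 1 and WT 3, and they overlapped once arrays were centred on their medians, where the difference was -0.14 in place of -0.20. The limma adjusted p of Hnf4a was 0.347, and the 4 probe sets of the gene gave differences from -0.20 to -0.04.

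**Figure D2:**
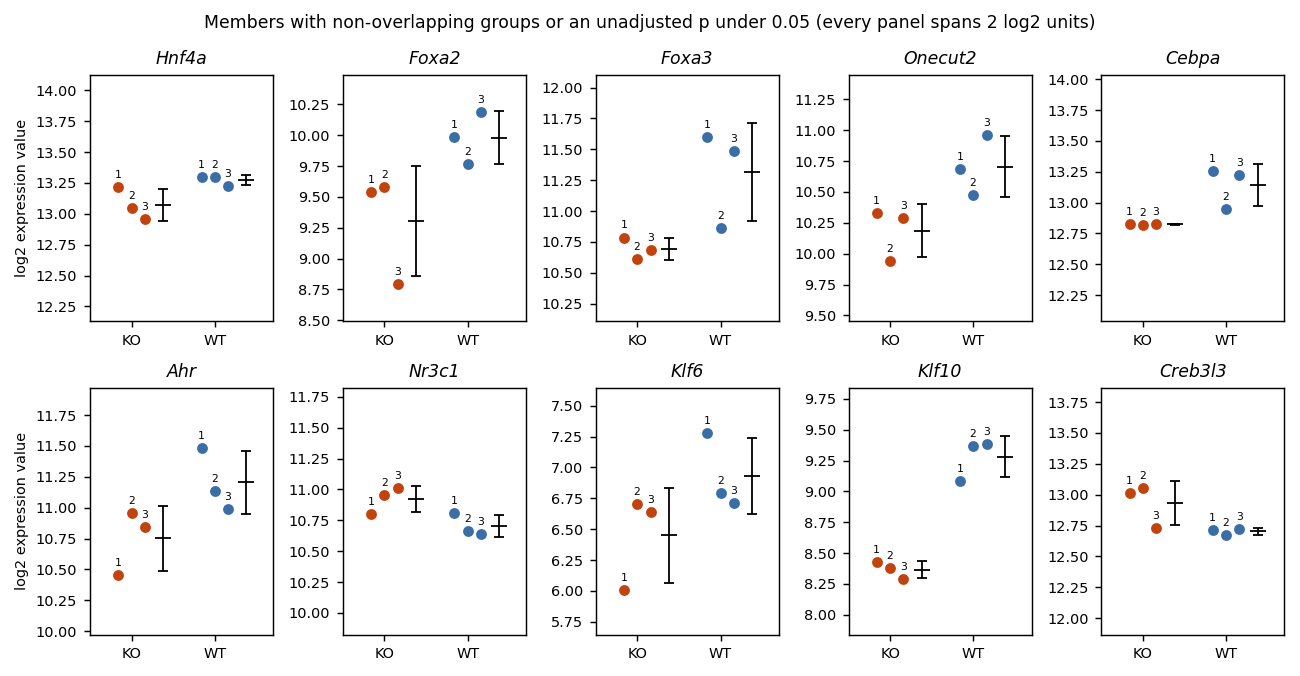
Log2 expression (vertical axis, 2 log2 units in every panel) of the 10 genes with non-overlapping groups or an unadjusted p under 0.05, KO at left and WT at right, with replicate numbers above the points and mean ± SD beside them (n = 3 each). Klf10 shows the widest gap between groups, 0.66, and Hnf4a and Klf6 show gaps of 0.01.

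Prox1, a homeodomain factor of hepatocytes and lymphatic vessels, and Nr5a2, LRH-1, which drives bile acid and cholesterol genes, had overlapping groups. Prox1 measured 8.36 to 8.62 in KO and 8.22 to 8.63 in WT, and all 3 of its probe sets had differences above 0, from 0.10 to 0.36. Nr5a2 measured 10.48 to 10.95 in KO and 10.25 to 11.24 in WT. Its 3 probe sets past the filter gave differences from -0.27 to 0.23, 2 of them below 0, so its direction differed between probe sets. The groups did not overlap for the second of these, at -0.27.

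The promoters of the identity factors are shown because 4 of the 5 with non-overlapping groups have an entry in the RefSeq table of build GRCm38.p6. Given are the 250 bases before each transcription start, 5′ to 3′ on the gene's strand, with motif matches in capitals. Foxa2 has 3 starts in the table, of which the outermost is shown, at chr2:148046970-148047219 on the minus strand and Foxa3 at chr7:19023540-19023789 on the minus strand. Cebpa is at chr7:35119043-35119292 on the plus strand. Hnf4a has an upstream start, whose window is chr2:163506607-163506856, and a downstream start, whose window is chr2:163546905-163547154, both on the plus strand. The downstream start corresponds to the promoter known to be used in adult liver.
Foxa2: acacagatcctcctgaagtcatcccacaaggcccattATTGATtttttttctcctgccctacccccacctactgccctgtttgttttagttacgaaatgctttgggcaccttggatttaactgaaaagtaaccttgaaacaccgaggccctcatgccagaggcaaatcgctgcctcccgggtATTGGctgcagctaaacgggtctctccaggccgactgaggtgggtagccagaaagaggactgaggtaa
Foxa3: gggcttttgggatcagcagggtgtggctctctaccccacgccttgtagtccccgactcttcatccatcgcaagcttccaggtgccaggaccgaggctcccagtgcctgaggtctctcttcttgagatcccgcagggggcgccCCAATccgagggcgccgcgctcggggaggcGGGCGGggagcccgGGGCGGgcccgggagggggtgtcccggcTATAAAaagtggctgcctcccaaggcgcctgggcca
Cebpa: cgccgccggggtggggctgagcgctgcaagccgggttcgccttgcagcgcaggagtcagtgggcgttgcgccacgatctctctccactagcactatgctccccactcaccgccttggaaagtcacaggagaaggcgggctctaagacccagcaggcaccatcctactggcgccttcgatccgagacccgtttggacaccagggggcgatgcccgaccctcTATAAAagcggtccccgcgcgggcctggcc
Hnf4a upstream: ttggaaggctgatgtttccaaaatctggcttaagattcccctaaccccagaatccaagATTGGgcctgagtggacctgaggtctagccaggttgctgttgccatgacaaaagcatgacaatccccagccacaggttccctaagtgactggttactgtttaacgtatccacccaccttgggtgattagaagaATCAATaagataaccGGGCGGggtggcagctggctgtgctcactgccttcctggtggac
Hnf4a downstream: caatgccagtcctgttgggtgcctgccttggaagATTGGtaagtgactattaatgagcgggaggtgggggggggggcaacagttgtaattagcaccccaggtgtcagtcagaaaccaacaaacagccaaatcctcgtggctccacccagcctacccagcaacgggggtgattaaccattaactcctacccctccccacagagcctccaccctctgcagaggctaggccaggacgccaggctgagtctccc

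The search covered both strands for 8 motifs. Those of hepatocyte factors were TGTTTAC, which is bound by the FOXA proteins, and ATCAAT, which is bound by the ONECUT proteins. Those of other regulators were AGGTCA, which is recognised by nuclear receptors, then CACGTG, which is the E-box recognised by USF proteins, and finally TGACG, which is the core of the cAMP response element. General promoter motifs were CCAAT, which is bound by the trimer NF-Y, then TATAAA, which is the TATA box, and finally GGGCGG, which is the GC box bound by SP1 and its relatives. No match overlapped another in the 5 windows shown. Positions are those of the first base of a match, with -1 next to the start. Cebpa held a TATA box at -30 and Foxa3 one at -36, a motif found in 13.0% of 27025 promoters, 1 start per gene. The downstream Hnf4a window held a CCAAT match at -216, a motif found in 34.5% of all promoters. The upstream Hnf4a window held an ONECUT match at -59 and the Foxa2 window one at -213 (6.9% of promoters). All counts over genes took the outermost start of each gene only. For Hnf4a that is the upstream start, so it is counted for the GC box and ONECUT, which its downstream window lacks. Across the 31 of the 38 genes matched by symbol, the GC box was present in 17, beside 33.0% of all promoters, CCAAT in 13, beside 34.5%, and the E-box in 4, beside 6.0%. The ONECUT motif was present in 4, beside 6.9%, and the FOXA motif in 2, beside 3.1%. The TATA box was present in 4, beside 13.0%, the nuclear receptor motif in 3, beside 13.8%, and the cAMP response core in 6, beside 17.8%. The median GC content of these windows was 63.2%, beside 52.0% over all promoters. A match is a description of letters and not evidence of binding.

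Of the 4 sensors of foreign compounds, Ahr stood apart. Ahr, the aryl hydrocarbon receptor that induces Cyp1 enzymes, measured 10.46, 10.96 and 10.84 on the KO arrays and 11.49, 11.14 and 10.99 on the WT arrays. The groups were 0.03 apart, with KO 1 lowest and WT 1 highest. The difference was -0.45 with a standard error of 0.18 (limma, adjusted p = 0.345). It was no longer separated when arrays were centred on their medians, at -0.39, and a dimmer second probe set gave 0.18. Arnt, the partner of AHR, lay the other way, with KO arrays at 7.35 to 7.62 and WT arrays at 7.20 to 7.41 and a difference of 0.21 (limma, adjusted p = 0.396). Median centring separated the Arnt groups. Nr1i2, PXR, measured 8.32 to 8.85 in KO and 8.18 to 8.76 in WT, and Nr1i3, CAR, 11.18 to 11.57 in KO and 11.38 to 11.74 in WT. Their intervals ran from -0.45 to 0.61 and from -0.47 to 0.26.

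Target genes of these sensors were mixed. Among 23 tested CAR and PXR targets, 0 were called, 2 were lower and 2 higher at an unadjusted p under 0.05 (backgrounds 10.1% and 4.32%), and the median was -0.12. Cyp2b10, the classic CAR-induced P450, measured 10.99, 10.72 and 10.83 in KO and 10.47, 10.54 and 9.87 in WT, a difference of 0.55 (limma, adjusted p = 0.318) that was 0.34 without WT 3. Cyp2c39, a P450 of the same inducible group, differed by -0.77 (limma, adjusted p = 0.242) and the glutathione transferase Gsta2 by -1.06 with overlapping groups. Gsta2 was called without KO 3 (limma, adjusted p = 0.0415), a setting in which 1.4% of all genes were called. Of 13 AHR target entries 5 were tested. All 5 had differences below 0, beside 58.4% of all genes, with a median of -0.23. Of these targets 0 were called, and 1 was lower and 0 higher at an unadjusted p under 0.05. Nqo1, a quinone reductase, measured 7.03, 7.15 and 7.75 in KO and 8.11, 8.33 and 7.72 in WT, so that KO 3 lay just above WT 3. Cyp1a2, a P450 induced by AHR, differed by -0.22. The targets Cyp1a1, Cyp1b1, Ahrr and Aldh3a1 did not pass the filter. Cyp1a1 measured 3.46 to 3.53 in KO and 3.46 to 3.90 in WT.

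None of the 4 tested lipid-sensing receptors and RXR partners had separated groups, and their differences ran from -0.22 to 0.01. Rxrb measured 9.78 to 9.88 in KO and 9.72 to 9.93 in WT, and its interval of the difference was -0.18 to 0.20. Rxra, the main RXR of hepatocytes, had an interval from -0.34 to 0.26, although its second probe set did not overlap between groups and gave 0.31. Nr1h3, LXR alpha, which is also expressed in macrophages, measured 10.06 to 10.19 in KO and 10.06 to 10.35 in WT, with an interval from -0.29 to 0.17. Pparg, low in healthy hepatocytes and high in fat, measured 7.19 to 8.19 in KO and 7.81 to 8.15 in WT. KO 2 was its lowest array and KO 3 its highest, so the interval ran from -0.87 to 0.43.

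Among 17 tested LXR targets 1 was called. Pltp, which moves phospholipids between plasma lipoproteins, fell to 10.63, 10.81 and 10.86 in KO, against 11.73, 11.60 and 11.74 in WT, a difference of -0.92 (limma, adjusted p = 0.0411). With 1 array left out the adjusted p of Pltp was 0.0354 to 0.215, and only leaving out KO 3 kept the call. Its other values were 0.124 (KO 1 removed), 0.171 (KO 2), 0.215 (WT 1), 0.139 (WT 2) and 0.179 (WT 3). Pltp is also expressed in macrophages, whose markers had a median of -0.86 on the same arrays, and their part in the value was not tested. The list median was -0.16, with 13 of 17 below 0, beside 58.4% of all genes. At an unadjusted p under 0.05 there were 3 lower and 1 higher (backgrounds 10.1% and 4.32%). Of 18 tested PPAR targets 0 were called, the median was -0.06 and 1 lay on each side at an unadjusted p under 0.05. Angptl4, an inhibitor of lipoprotein lipase, was at 11.74, 11.78 and 11.73 in KO and 11.21, 11.26 and 11.26 in WT, a difference of 0.50 (limma, adjusted p = 0.0655). Angptl4 was called with trend and robust settings (limma, adjusted p = 0.047) and without KO 3 (limma, adjusted p = 0.0485). Of all genes, 0.240% were called with trend and robust settings and 1.4% without KO 3. Fabp4, a fatty acid binding protein of fat cells and macrophages, differed by -0.77, with WT 2 the highest array at 10.25, and by -0.48 without WT 2.

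The 2 steroid hormone receptors had differences above 0. Nr3c1, the glucocorticoid receptor, measured 10.80, 10.96 and 11.01 on the KO arrays and 10.81, 10.67 and 10.64 on the WT arrays. The groups overlapped through KO 1, which lay just under WT 1. They did not overlap with median centring or quantile normalisation. The difference was 0.22 with a standard error of 0.09 (limma, adjusted p = 0.338), and all 5 probe sets past the filter lay above 0, from 0.0041 to 0.76. The probe set at 0.76 was the 1 of them with non-overlapping groups. Esr1, the estrogen receptor, was even in WT at 10.12 to 10.21 but spread from 9.61 on KO 1 to 10.78 on KO 2, and its interval ran from -0.67 to 0.76. Of 21 tested glucocorticoid receptor targets 0 were called, with a median of 0.01, 3 lower and 2 higher at an unadjusted p under 0.05. Sult1e1, the estrogen sulfotransferase, measured 5.18, 7.60 and 5.14 in KO and 9.55, 8.43 and 8.02 in WT, a difference of -2.69 (limma, adjusted p = 0.27). Cdkn1a, the p21 cell cycle inhibitor, differed by -1.07 (limma, adjusted p = 0.243), and KO 1 and KO 2 lay near the level of the filter. Cdkn1a was called without KO 3 (limma, adjusted p = 0.0267), a setting in which 1.4% of all genes were called.

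Of the 6 orphan, clock and energy receptors, 5 passed the filter and all 5 had intervals within 0.5 of 0. Esrra, which drives mitochondrial genes with PGC-1, measured 7.93 to 8.15 in KO and 7.89 to 8.13 in WT. Rora, an activator of the core clock, measured 10.28 to 10.60 in KO and 10.22 to 10.47 in WT, and Nr1d2, the REV-ERB beta repressor of the same sites, 12.26 to 12.37 in KO and 12.02 to 12.43 in WT. The 7 Rora probe sets past the filter lay on both sides of 0, from -0.22 to 0.31, and the one at 0.31 had non-overlapping groups. The second Nr1d2 probe set gave 0.48 with non-overlapping groups, against 0.09 for the brightest. Nr2f2, COUP-TFII, which is found in endothelial and stellate cells as well as hepatocytes, measured 9.48 to 9.70 in KO and 9.42 to 9.83 in WT. Its interval, -0.37 to 0.24, stood beside endothelial markers with a list median of -0.31 on the same arrays. Nr2f6, a related repressor, lay within -0.28 to 0.07.

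Among 16 tested targets of ROR and REV-ERB receptors and clock output genes, 0 were called, the median was -0.09, and 2 were lower and 1 higher at an unadjusted p under 0.05. Nfil3, a repressor that REV-ERB proteins hold down, measured 8.31, 8.09 and 7.64 in KO and 6.52, 7.17 and 6.87 in WT, a difference of 1.16 (limma, adjusted p = 0.194). Bhlhe40, a clock repressor also called DEC1, measured 10.96, 10.91 and 11.16 in KO and 11.56, 11.62 and 11.78 in WT, a difference of -0.65 (limma, adjusted p = 0.125). It was called without KO 3 (limma, adjusted p = 0.0493), a setting in which 1.4% of all genes were called. At what time of day the livers were taken is not known here. The 15 tested ERR alpha targets had a median of -0.02, with 0 on either side at an unadjusted p under 0.05. Their list mean was 12.32 on WT 2, the array with muscle transcripts, against 11.87 on WT 1, 11.81 on WT 3 and 11.90 to 11.94 in KO. The part of the muscle transcripts in this result was not tested. The 15 tested LRH-1 and FXR targets had a median of -0.03 and 0 called. At an unadjusted p under 0.05, 3 were lower and 0 higher (backgrounds 10.1% and 4.32%). Among the 3 was Cyp7a1, the rate-limiting enzyme of bile acid synthesis, at 12.89, 13.07 and 12.87 in KO and 13.94, 13.25 and 13.65 in WT (limma, adjusted p = 0.25).

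Klf10 had the lowest difference of the 35 and the widest gap between groups. Klf10 encodes a Kruppel-like repressor, also called TIEG1, that is induced early by TGF-beta and cycles with the clock in liver. It measured 8.43, 8.38 and 8.29 on the KO arrays and 9.09, 9.37 and 9.39 on the WT arrays. The KO mean was 8.37 ± 0.07 and the WT mean 9.28 ± 0.17 (SD, n = 3 each), and the highest KO array lay 0.66 below the lowest WT array. The difference was -0.92 with a standard error of 0.10 and an interval from -1.17 to -0.66 (limma, adjusted p = 0.0655). It passed in 1 of the alternatives, a variance model with trend and robust settings (limma, adjusted p = 0.047), in which 0.240% of all genes were called. With 1 array left out it lay between -1.01 and -0.86 (limma, adjusted p 0.0572 to 0.238). Klf10 had 1 probe set, so no other probe set could be set beside it.

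Klf6, an immediate-early Kruppel-like factor of hepatocytes and nonparenchymal cells, measured 6.01, 6.70 and 6.64 on the KO arrays and 7.28, 6.79 and 6.71 on the WT arrays. The groups were 0.01 apart, with KO 1 lowest and WT 1 highest, and overlapped after median centring. The difference was -0.48 with a standard error of 0.24 (limma, adjusted p = 0.407). It was -0.26 without KO 1 and -0.30 without WT 1. The 2 further probe sets of Klf6 lay below 0 as well, at -1.28 with non-overlapping groups and at -0.74 with overlapping ones. Macrophage markers, which had a median of -0.86, had list means of 8.42, 8.77 and 9.60 in KO and of at least 9.85 in WT. A link between them and Klf6 was not tested.

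Klf9, a target of glucocorticoid and thyroid hormone, had groups that overlapped only through KO 1 and WT 1, at 12.41 to 12.73 in KO and 12.73 to 12.79 in WT. All 6 of its probe sets past the filter lay below 0, from -0.34 to -0.07, and 2 of them did not overlap between groups. Klf15, which drives amino acid breakdown in fasting, measured 12.56 to 12.64 in KO and 12.22 to 12.72 in WT, with an interval from -0.21 to 0.44. Among 12 tested KLF15 targets 0 were called, the median was -0.05, and 2 were lower and 1 higher at an unadjusted p under 0.05. Aldh4a1, of proline breakdown, measured 11.66, 11.87 and 11.81 in KO and 12.09, 12.10 and 12.08 in WT (limma, adjusted p = 0.231).

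Creb3l3 was the only one of the 35 whose KO arrays all lay above the WT arrays in the values as deposited. With median centring Arnt, Nr3c1 and Zhx2 were so separated too, and with quantile normalisation Nr3c1. Creb3l3 encodes CREBH, a membrane-bound factor released by stress and fasting that drives genes of triglyceride handling and the acute phase. It measured 13.01, 13.06 and 12.73 on the KO arrays and 12.72, 12.67 and 12.72 on the WT arrays. KO 1 and KO 2 lay well clear of WT, but KO 3 by only 0.01. The difference was 0.23 with a standard error of 0.10 (limma, adjusted p = 0.362), and 0.33 without KO 3. KO 1 and KO 2 were also the arrays with high acute-phase transcripts, and a link between them was not tested. Of 13 tested CREBH targets 0 were called, with a median of 0.13, 9 above 0, and 2 lower and 0 higher at an unadjusted p under 0.05. Apoa4, an apolipoprotein, followed the same arrays, at 14.29, 13.79 and 12.34 in KO and 12.58, 12.13 and 12.63 in WT (limma, adjusted p = 0.4). Its difference of 1.03 was 0.62 without KO 1 and 1.60 without KO 3. Fads1, a desaturase of polyunsaturated fatty acid synthesis, measured 13.03, 13.28 and 13.20 in KO and 13.78, 13.45 and 13.59 in WT, a difference of -0.44 (limma, adjusted p = 0.243). Angptl8, a lipase inhibitor induced by feeding, lay the other way, at 9.73, 8.41 and 8.84 in KO and 10.87, 11.87 and 12.71 in WT, a difference of -2.82 (limma, adjusted p = 0.19).

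Usf1 and Usf2, the E-box binding factors of lipogenic genes, had differences of -0.0031 and -0.02, with intervals from -0.43 to 0.42 and from -0.38 to 0.34. The 11 tested USF and lipogenic targets had a median of -0.19, with 9 below 0, beside 58.4% of all genes, and 0 called. At an unadjusted p under 0.05, 0 were lower and 1 higher (backgrounds 10.1% and 4.32%). Thrsp, a lipogenic nuclear protein, lay higher, at 14.60, 14.85 and 14.71 in KO and 14.26, 14.19 and 14.38 in WT, a difference of 0.44 (limma, adjusted p = 0.196).

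**Figure D3:**
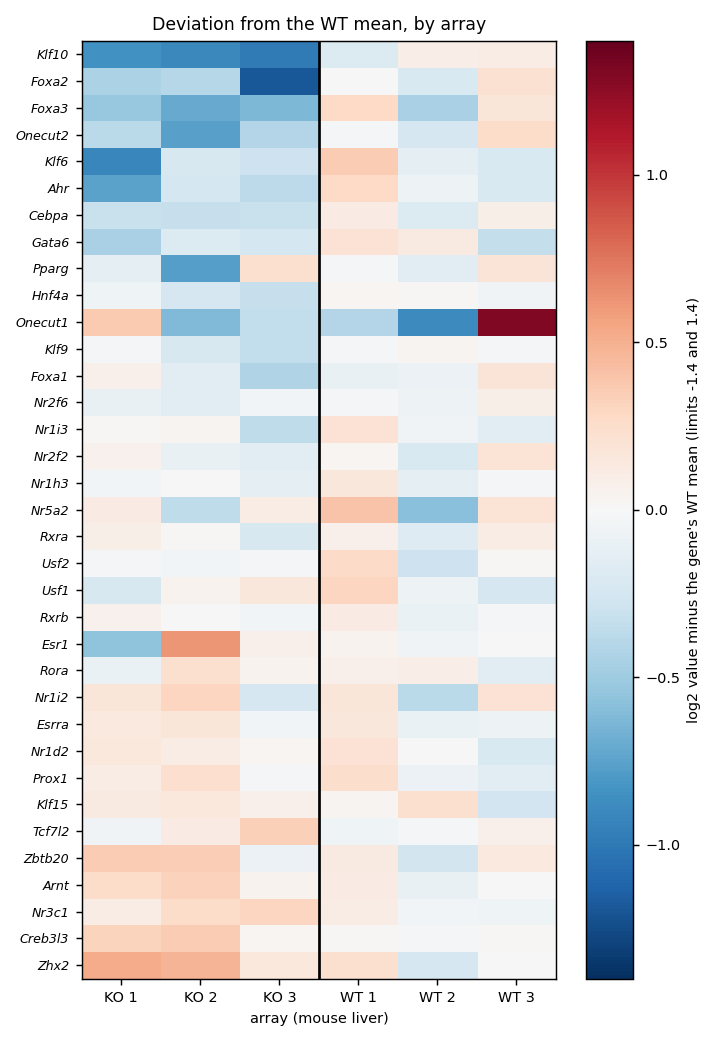
Deviation of each array (columns) from the gene's WT mean on the log2 scale (colour, limits -1.4 and 1.4) for the 35 genes, ordered by the difference of KO minus WT. The top 8 rows are below the WT mean on all 3 KO arrays, and Onecut1 on WT 3 and Foxa2 on KO 3 stand out as single arrays.

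Of the remaining factors, Zhx2 and Zbtb20 are zinc finger proteins that silence fetal genes after birth. Zhx2 measured 7.56, 7.52 and 7.19 on the KO arrays and 7.27, 6.81 and 7.05 on the WT arrays. KO 3 lay below WT 1, so the groups overlapped, though not with median centring. The difference was 0.38 with an interval from -0.01 to 0.77 (limma, adjusted p = 0.346). Zbtb20 measured 10.58 to 11.02 in KO and 10.41 to 10.80 in WT. All 9 of its probe sets had a KO mean above the WT mean, by 0.02 to 0.51, although groups were separated for 1 of them only. Probe sets of a gene read the same RNA and are not replicates.

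Fetal liver genes that these repressors hold down were tested for 8 of 14 entries, with 0 called. At an unadjusted p under 0.05, 3 were lower and 0 higher (backgrounds 10.1% and 4.32%). Cd24a, a surface glycoprotein of fetal liver and immune cells, measured 6.02, 6.09 and 6.19 in KO and 6.46, 6.56 and 6.59 in WT (limma, adjusted p = 0.139). Spink1, a trypsin inhibitor, measured 3.62, 4.88 and 5.70 in KO and 8.22, 7.24 and 6.49 in WT, a difference of -2.58 (limma, adjusted p = 0.242).

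Tcf7l2, the DNA-binding partner of beta-catenin, measured 6.56, 6.73 and 6.95 in KO and 6.56, 6.60 and 6.68 in WT, with an interval from -0.14 to 0.41. Of its pericentral and Wnt targets, 13 of 15 tested lay below 0, beside 58.4% of all genes, with a median of -0.26 and 0 called. At an unadjusted p under 0.05, 5 were lower and 0 higher (backgrounds 10.1% and 4.32%). Axin2, the Wnt feedback inhibitor, measured 5.58, 4.95 and 4.91 in KO and 6.83, 6.67 and 6.33 in WT, a difference of -1.46 (limma, adjusted p = 0.129). Tbx3, a T-box factor of pericentral hepatocytes, differed by -0.91 (limma, adjusted p = 0.29). Gata6, of endodermal and mesothelial lineages, had overlapping groups, at 7.52 to 7.79 in KO and 7.65 to 8.18 in WT, and an interval from -0.71 to 0.11.

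Probe sets of the same gene give a further view of direction. The 37 genes had 106 probe sets, and beside the brightest ones 52 further probe sets of 22 genes passed the filter. Of these, 41 had the same direction as the brightest, 10 the opposite and 1 a difference of 0. For Hnf4a, Onecut2, Klf6 and Klf9 every probe set past the filter lay below 0, and for Prox1, Arnt, Nr3c1 and Zbtb20 every one lay above 0.

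**Figure D4:**
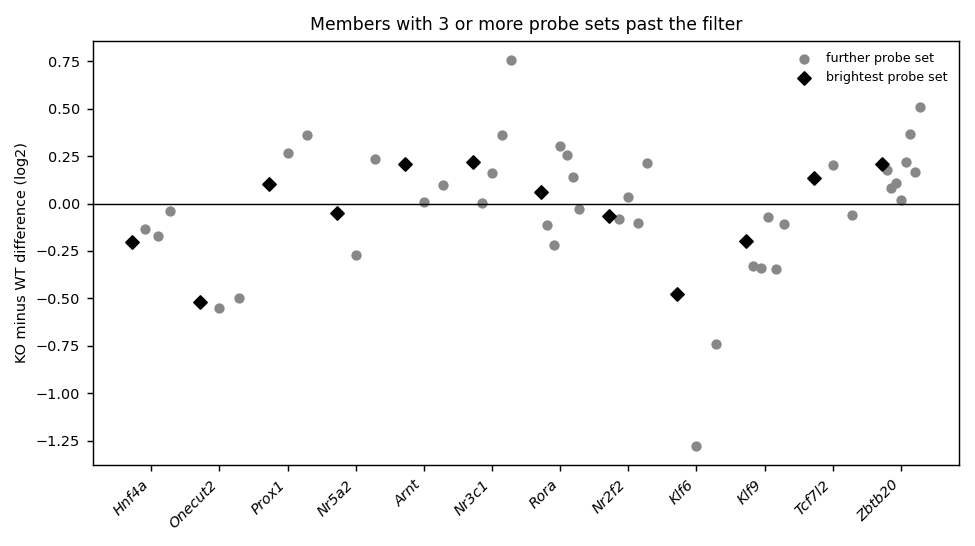
Difference of KO minus WT (vertical axis, log2) for each probe set past the filter of the 12 genes with 3 or more, with the brightest as a black diamond. The 3 Onecut2 probe sets lie between -0.55 and -0.50, the 9 Zbtb20 probe sets between 0.02 and 0.51, and those of Rora on both sides of 0.

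Targets of the identity factors did not share a direction. The 18 tested HNF4A targets had a median of -0.04, with 1 lower and 2 higher at an unadjusted p under 0.05 and 0 called. G6pc, glucose-6-phosphatase, measured 13.71, 13.43 and 13.91 in KO and 11.53, 12.65 and 13.16 in WT, a difference of 1.24 (limma, adjusted p = 0.304) that was 0.78 without WT 1. Apom, an HDL apolipoprotein, differed by -0.27. The 12 tested FOXA and C/EBP targets had a median of 0.11, 0 called, and 0 higher and 1 lower at an unadjusted p under 0.05, Agxt, which clears glyoxylate, at -0.31 (limma, adjusted p = 0.338). Across the 17 lists of target and partner genes, medians ran from -0.26 for the Wnt targets to 0.13 for the CREBH targets, and Pltp was the 1 gene called. Several genes are in more than 1 list, and the lists share the same 6 arrays.

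**Figure D5:**
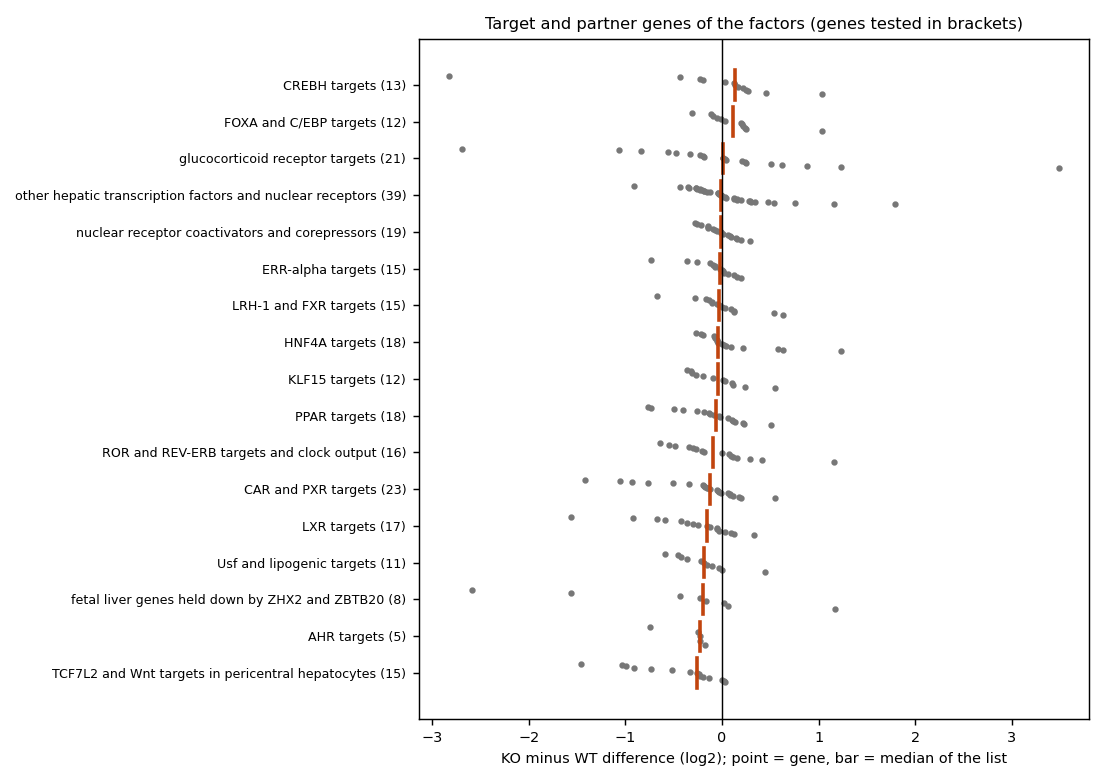
Difference of KO minus WT (horizontal axis, log2) for each tested gene of the 17 lists, with the list median as a bar and the number of genes tested in brackets. Medians lie between -0.26 and 0.13, and single genes lie far outside that range on both sides.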

How the data were processed

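RNA of 6 mouse livers, 3 KO and 3 WT, was hybridised to Affymetrix arrays, 1 per liver. Each deposited log2 value summarises the probes of a set. The submitters' processing notes name GCRMA 2.16.0 and R 2.9.1 as what the authors used, and further settings are not given in the sources used here. GCRMA corrects for background by probe sequence and normalises across arrays, which pulls dim values together and reduces overall shifts between arrays. A shift remained in these values. Array means over the genes tested were 8.60 to 8.63 in KO and 8.67 to 8.71 in WT. The log2 scale was inferred from the values, 2.185 to 16.327. The number of arrays limits the precision.

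Of 45101 probe sets, 64 manufacturer controls were set aside and 34945 had 1 gene symbol. KO was compared with WT over 10009 genes in limma 3.58.1 under R 4.3.3 (lmFit, eBayes, two-sided, Benjamini-Hochberg adjustment over all genes tested, called at an adjusted p under 0.05). The fit was tested on simulated data. Single values in 3 against 3 arrays cannot give an exact permutation p below 0.1. Each mouse is a biological replicate per the labels. The labels number the mice within each group and do not say whether shared numbers pair KO with WT mice, so the main fit used no pairing. The members and gene lists were chosen with earlier results of these data known. Described with every array are genes with non-overlapping groups or an unadjusted p under 0.05. Each target list names its called genes, or otherwise members among its 3 smallest p, and not all so picked are printed. Cyp7a1, among the LXR targets too, is named with the LRH-1 targets. Promoter sequences are from RefSeq, build GRCm38.p6, and a further motif is not reported here. Figures were drawn with matplotlib 3.10.9.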

Additional observations from a re-analysis of the deposited data

How the results depend on the processing

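In 17 alternatives, the 35 genes gave 580 single differences. Of these, 539 kept direction and side of the threshold, 1 (Klf10) passed and 40 changed sign. Of the 35, 19 never changed sign. With every probe set tested, the single difference of a gene was that of its second-brightest probe set. The number of genes called over all genes was 17 in limma, and 3 with no filter, 10 with a filter at 6, 0 with the replicate block (unadjusted p under 0.05 for 4 of the 35) and 3 without KO 3 and WT 2 together. It was between 1 and 140 with 1 array left out, the 140 without KO 3, the 1 without KO 2, WT 1 or WT 2. The count of the 35 called was 1 with trend and robust settings and 0 in each of the others. Non-overlapping groups numbered 16 with every probe set tested and 17 without KO 3 and WT 2 together, and 9 to 16 with 1 array left out. At an unadjusted p under 0.05 there were 12 with every probe set tested and 3 to 8 with 1 array left out. Groups of fewer arrays separate more easily, and so does a gene counted by any of several probe sets. The shares of all genes under these settings are not given here, so these counts are not results about the 35. The median lay between -0.13 and 0.02. For the replicate block, same-numbered KO and WT arrays deviated from their group means with r from -0.14 to -0.08 and differently numbered ones from -0.07 to 0.16, so no array correlated best with its own number.

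Signs changed as follows, and the cause was not tested. The mean of probe sets gave 0.14 for Onecut1, 0.0886 for Rxra and 0.0049 for Nr2f2. With every probe set tested, the second-brightest one gave 0.48 for Onecut1, 0.18 for Ahr, 0.31 for Rxra, -0.12 for Rora, 0.11 for Med14 and 0.0526 for Nfe2l2. Median centring gave 0.0165 for Nr5a2, 0.0053 for Nr1h3, 0.0249 for Rxra, 0.0014 for Nr2f2, 0.0634 for Usf1 and 0.0465 for Usf2. Leaving out KO 3 and WT 2 together gave 0.0006 for Nr1i3 and -0.0165 for Rxrb. Quantile normalisation gave 0.061 for Usf1 and 0.0021 for Usf2. With 1 array left out the ranges were -0.64 to 0.45 for Onecut1, -0.34 to 0.15 for Nr5a2, -0.11 to 0.23 for Nr1i2, -0.18 to 0.025 for Nr1i3, -0.13 to 0.0153 for Nr1h3, -0.45 to 0.0492 for Pparg, -0.13 to 0.0502 for Rxra, -0.0388 to 0.066 for Rxrb, -0.24 to 0.35 for Esr1, -0.0243 to 0.14 for Rora, -0.0134 to 0.19 for Nr1d2, -0.17 to 0.0295 for Nr2f2, -0.0152 to 0.23 for Klf15, -0.12 to 0.15 for Usf1 and -0.16 to 0.12 for Usf2. With the replicate block the calls of Lamtor2 (limma, adjusted p = 0.116) and Pltp (0.216) were lost, and without KO 3 and WT 2 together too (0.114 and 0.145). Pltp was also lost with no filter (0.169) and the mean of probe sets (0.0769). With every probe set tested, its second-brightest probe set was not called (limma, adjusted p = 0.18). Without KO 3, calls were gained for Gsta2 (0.0415), Cdkn1a (0.0267), Angptl4 (0.0485), Bhlhe40 (0.0493) and Scd1 (0.0354), and with trend and robust settings for Klf10 and Angptl4 (0.047 each).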

Other observations

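Partners of the nuclear receptors were also described. Of 19 tested coactivators and corepressors 0 were called in limma, 3 were lower and 0 higher at an unadjusted p under 0.05, against 10.1% and 4.32% of all genes. The 3 were Crebbp and Ep300, the paired histone acetyltransferases, and Med14, a backbone subunit of Mediator. Crebbp measured 9.29, 9.16 and 9.23 in KO and 9.65, 9.50 and 9.32 in WT. Ep300 measured 8.19, 7.95 and 8.10 in KO and 8.42, 8.21 and 8.44 in WT. The difference was -0.26 for Crebbp (limma, adjusted p = 0.336) and -0.28 for Ep300 (limma, adjusted p = 0.317), and neither was called. A second Med14 probe set gave 0.11 in place of -0.22.

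Among 39 further hepatic factors tested, 0 were called and 3 lay on each side at an unadjusted p under 0.05. Nfix and Nfia, nuclear factor I proteins with a shared DNA-binding domain, lay on opposite sides. Nfix measured 11.64, 11.52 and 11.55 in KO and 11.39, 11.17 and 11.25 in WT (limma, adjusted p = 0.25). Nfia measured 10.64, 10.85 and 10.54 in KO and 11.30, 10.99 and 11.04 in WT (limma, adjusted p = 0.264).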
